A study of Mus musculus with 12 samples.

Results

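The ErbB receptors and their ligands were described in mouse mammary tumors, from every array probe that names 1 of 10 genes: the receptors Egfr, Erbb2, Erbb3 and Erbb4 and the ligands Areg, Ereg, Btc, Tgfa, Hbegf and Nrg1. A probe belonged to the family if its gene name, current or older, was on that list and it was not a control spot. This gave 29 probes in 65 spots, of 41174 gene probes that name 27670 genes in all. The rule uses no measured value.

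The RNA of 8 tumors labelled ShcA-null, numbered 1 to 8, was compared with 1 pool of NIC tumor RNA on 12 two-colour arrays. In the NIC model, which the series' text gives for both sides of the comparison, a mammary promoter expresses an activated Neu (ErbB2) receptor together with Cre recombinase, so that Cre acts in the cells that carry the oncogene and the stroma of the tumor keeps its own ShcA. ShcA, encoded by Shc1, is an adaptor that binds phosphorylated ErbB receptors and passes the signal to Ras. The sources used here do not give age, strain, the deleted part of Shc1 or the number of tumors in the pool. Every tumor was read once with its RNA in the red dye Cy5 (the first arrays), and for tumors 1 to 4 the dyes were also swapped, with tumor RNA in the green dye Cy3 (the swapped arrays). All values are log2 ratios of ShcA-null tumor over pool, so a negative value means lower in the tumor, and 1 unit is a doubling.

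ErbB receptors are tyrosine kinases that pair up when a ligand binds. ErbB2 has no known ligand of its own and is the favoured partner of the others, while ErbB3 has a weak kinase and signals mostly through its partner. EGF-like ligands are made as membrane-anchored precursors and are shed by ADAM metalloproteases. In the mammary gland, amphiregulin (Areg) mediates duct growth under estrogen, neuregulin 1 (Nrg1) binds ErbB3 and ErbB4, and ErbB4 acts in the alveolar cells that make milk.

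The kinases are similar enough that probes of different receptors cover the same stretch, and 3 of them are shown here so that the degree of likeness can be judged. They are 60-base probe sequences from the scanner files, 5′ to 3′, and capitals mark bases that are identical in all of them.
Erbb2 A_51_P216179: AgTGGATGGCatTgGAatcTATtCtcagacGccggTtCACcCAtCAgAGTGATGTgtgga
Erbb3 A_51_P342050: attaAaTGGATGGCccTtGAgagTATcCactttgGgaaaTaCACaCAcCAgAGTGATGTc
Erbb4 A_51_P396034: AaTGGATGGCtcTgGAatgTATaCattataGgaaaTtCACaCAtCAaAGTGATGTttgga

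Over the 56 bases that all of them cover, 33 were identical (58.9%), and the nearest pair, Erbb3 and Erbb4, shared 44 of 56 (78.6%). On build mm7 the Erbb2 probe lies at chr11:98543549-98543608 on the plus strand, the Erbb3 probe at chr10:128073907-128073966 on the minus strand and the Erbb4 probe at chr1:68321019-68321078 on the minus strand. A second Erbb3 probe at chr10:128073927-128074215, which spans an intron, overlaps the first, and its capitals mark the 40 bases that both share.
Erbb3 A_51_P488243: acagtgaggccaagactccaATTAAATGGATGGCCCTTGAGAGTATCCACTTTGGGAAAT

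From the upstream and downstream ends of Erbb4, 2 further probes are shown because the first was lower in every tumor and the sign of the second followed the dye. They lie at chr1:68589047-68589106 and chr1:68285099-68286327, both on the minus strand, and their GC contents are 41.7% and 55.0%.
Erbb4 A_52_P608535, upstream: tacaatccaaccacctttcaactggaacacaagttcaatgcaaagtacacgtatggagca
Erbb4 A_51_P283698, downstream: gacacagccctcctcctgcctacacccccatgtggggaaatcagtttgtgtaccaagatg

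The most upstream tested Egfr probe is shown because it was lower in every tumor, and 1 Nrg1 probe because it reads through the EGF-like domain by which the ligand binds its receptor. The Egfr probe lies at chr11:16835551-16835610 on the plus strand and the Nrg1 probe at chr8:30617036-30617095 on the minus strand. Capitals in the Nrg1 probe mark its 2 in-frame cysteine codons.
Egfr A_52_P56471: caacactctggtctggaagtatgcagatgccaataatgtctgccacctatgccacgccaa
Nrg1 A_52_P369769: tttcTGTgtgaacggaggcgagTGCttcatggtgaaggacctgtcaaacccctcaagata

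Several libraries stand apart from their labels or from the rest, which bears on every result below. Over all kept probes the swapped array labelled tumor 1 correlated best with the first array of that tumor (r = 0.44). The swapped arrays labelled 2, 3 and 4 correlated best with those of tumors 3, 4 and 8 (r = 0.818, 0.392 and 0.682), against 0.142, 0.134 and 0.295 with their own label. Tumors 6 and 7 correlated with each other (r = 0.643) and less with the others, with a median r of 0.0523 for tumor 6 and 0.299 for tumor 7. In these same 2 tumors the ends of genes differed: over 6016 genes with probes at least 500 bases apart, the median log2 ratio of the most upstream probe minus that of the most downstream probe was -0.88 in tumor 6 and -0.65 in tumor 7, and between -0.02 and 0.21 in the other tumors. The single Shc1 probe, A_52_P384250, read 0.33, -0.03, -2.05, 0.58, 0.71, 0.24, 0.52 and 0.30 in tumors 1 to 8 on their first arrays, and 0.59, -2.22, 0.74 and 0.45 on the swapped arrays labelled 1 to 4. It was thus far below the pool on the first array of tumor 3 and on the swapped array labelled 2, and on no other array. The sources used here do not say whether this probe lies in the deleted part of Shc1, so it does not check the label. All 5 luminal epithelial markers were well above background on at least 1 tumor array, and 1, Krt8, was higher than in the pool (0.84 ± 0.57, SD, n = 8, limma adjusted p = 0.0183). With dye fitted over best-matching pairs Krt8 was at 0.29 and was not called (limma adjusted p = 0.515), and on the first arrays alone it was at 1.40.

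Probes of Egfr, Erbb3 and Erbb4 and 1 probe of Nrg1 were lower in the ShcA-null tumors, by 1.38-fold to 2.30-fold, and no family probe was higher. Neither Erbb2 probe was called, and neither were Areg, Btc, Tgfa and Hbegf. Of the 29 probes, 25 of 9 genes had enough signal to be tested, and 9 of those (36.0%) passed a limma adjusted p of 0.05, all 9 of them lower, where 15.3% of all 30706 tested probes were called, 10.1% lower and 5.19% higher. The count was 5 without tumor 2, without tumor 3 or without tumor 7, and 4 without tumor 4. Of all tested probes, 3543, 3081, 3428 and 2425 were called in that order, against 4696 with all 8 tumors. In 6 of the 25 probes every measured tumor was below the pool, where this held for 10.4% of all tested probes. Among the 6, Erbb3 A_51_P342050 and Nrg1 A_52_P328064 had a value in only 7 tumors, because outlier spots were left out. Among 15 tested receptor probes 8 were lower, and among 10 tested ligand probes 1 was, a difference that was not itself tested. The median of the mean log2 ratios was -0.48 over the receptor probes and -0.10 over the ligand probes, beside -0.05 over all tested probes. These are values of whole tumors, in which fewer cells of a type and less RNA per cell cannot be told apart.

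The tumors differed in which family members were low. The median over the family's receptor probes was lowest in tumor 7 (-1.06) and tumor 6 (-0.96) and nearest to the pool in tumor 5 (-0.04). The median over its ligand probes lay at -0.93 in tumor 2 and -0.84 in tumor 5, and at 0.44 in tumor 4. In these medians the arrays of tumors 1 to 4 were averaged by label. The swapped array labelled 2, which enters the value of tumor 2, was most like tumor 3, and those labelled 3 and 4 also matched other tumors best. Differences among these tumors therefore depend on the labels. The median of all tested probes stayed between -0.14 and 0.02 in every tumor. With the swapped arrays left out, 9 family probes were lower and 1 higher by limma, beside 12.5% of all probes lower and 18.5% called. Leaving out tumors 6 and 7, a choice made after seeing the data, left 7 lower and 1 higher, beside 15.6% lower and 27.3% called. All of those 7 were among the 9. When dye was fitted on all 12 arrays and each swapped array was paired with the first array it matched best, 3 probes remained, of Egfr and Erbb3, beside 3.65% of all probes lower and 6.18% called.

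**Figure D1:**
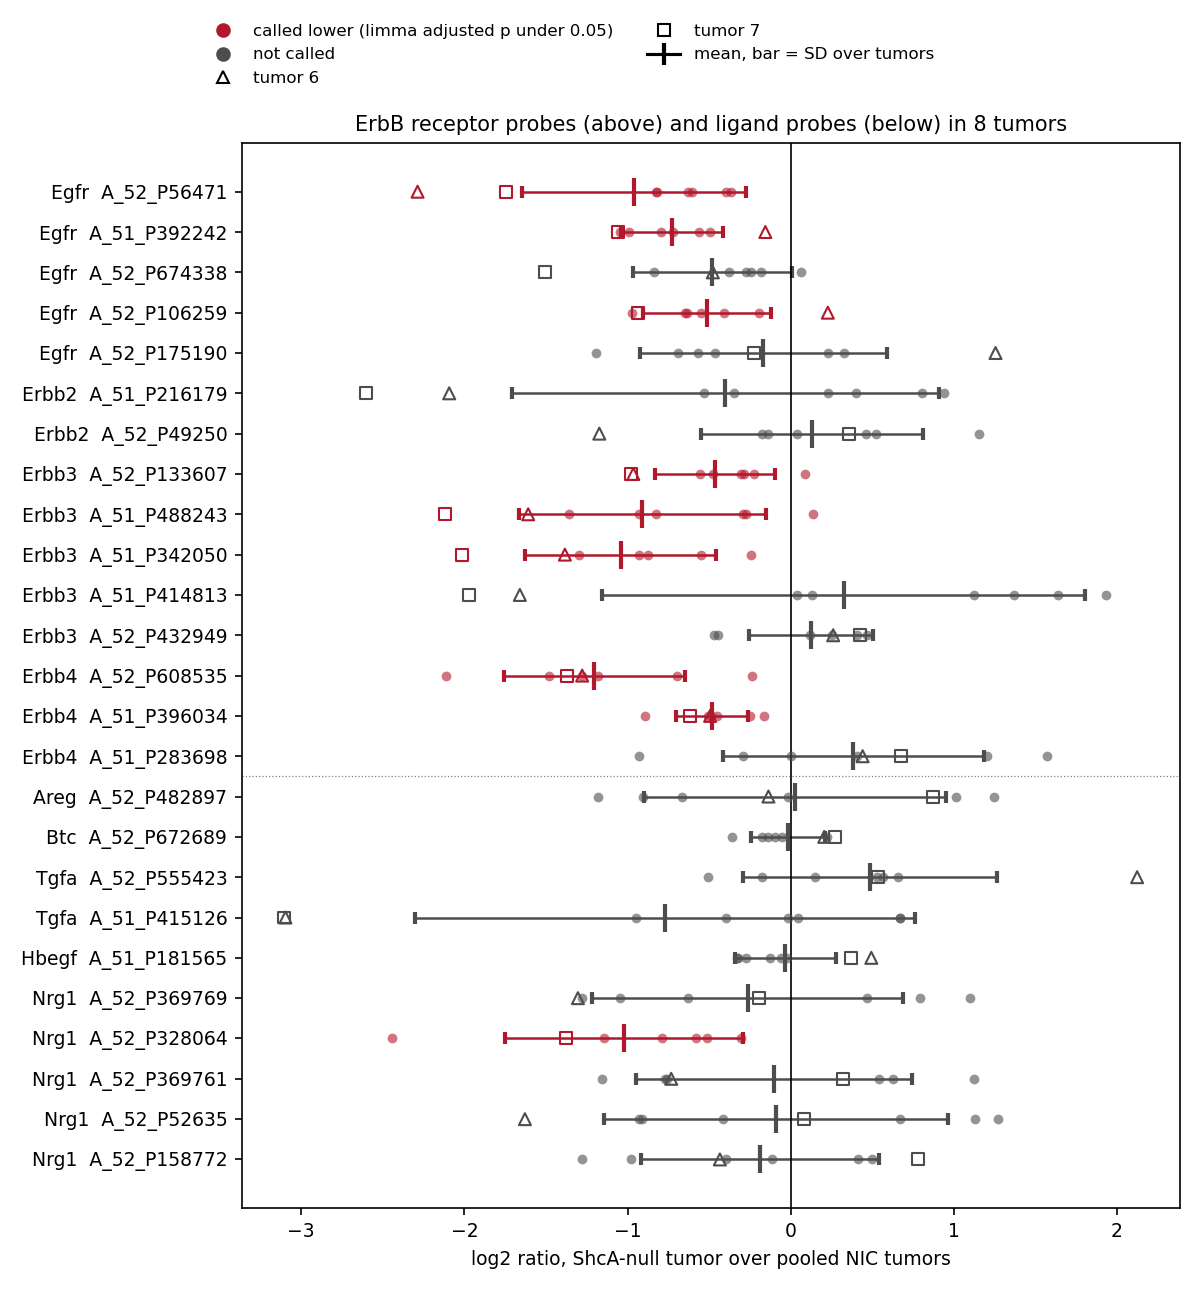
Each row is a tested probe, the horizontal axis is its log2 ratio of ShcA-null tumor over pooled NIC tumors, points are 8 tumors (tumor 6 a triangle, tumor 7 a square), and the tick and bar are the mean and SD. The 9 red rows were called lower, all of them receptor probes except Nrg1 A_52_P328064, and Erbb2, Erbb3 and Tgfa each have a probe with tumors 6 and 7 far to the left.

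Egfr, the receptor for EGF, TGFα and amphiregulin, was lower in the ShcA-null tumors on 3 of its 5 tested probes. A_52_P56471, which reads the receptor's extracellular part, ranged over the tumors from -2.29 to -0.37 with a median of -0.73. It was below the pool in 8 of 8 tumors, most of all in tumors 6 (-2.29) and 7 (-1.74). Its mean was -0.96 ± 0.69 (SD, n = 8), 1.95-fold lower, with a limma adjusted p of 0.0206 and an exact two-sided sign-flip p of 0.00781, the smallest that 8 tumors can give. A_51_P392242, printed 10 times on each array and assigned in the file to the same transcript record (NM_007912), was also lower in 8 of 8 tumors. Its lowest, median and highest tumors were at -1.06, -0.76 and -0.16, and its mean was -0.73 ± 0.31 (SD, n = 8; limma adjusted p = 0.00605). Here tumor 6 was the one nearest to the pool, the reverse of its place on the upstream probe. Median centring in place of loess moved this probe to -0.43, with a limma adjusted p of 0.117.

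The other tested Egfr probes lie further downstream and carry another record (NM_207655) or a cDNA record. A_52_P106259, also printed 10 times, was lower in 7 of 8 tumors, between -0.98 and 0.23 with a median of -0.59 (mean -0.51 ± 0.39, SD, n = 8; limma adjusted p = 0.0387). That call was kept in 8 of 19 alternative settings, and with median centring the mean was -0.17. A_52_P674338 averaged -0.48 ± 0.49 (SD, n = 8) and did not pass (limma adjusted p = 0.0831), although it did on the first arrays alone (-0.59, limma adjusted p = 0.0334). A_52_P175190, the most downstream, ranged from -1.19 in tumor 5 to 1.26 in tumor 6 and was not called (limma adjusted p = 0.666). A_52_P5855, upstream of all of these, was well above background for neither RNA on any array (0 of 12) and was not tested. Without tumors 6 and 7, A_52_P56471 averaged -0.61 and A_51_P392242 -0.77, with limma adjusted p of 0.00429 and 0.00237.

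Erbb2, the gene of the receptor whose activated form drives these tumors, was not called on either probe. The sources used here do not say whether these probes also bind RNA of the NIC transgene. A_51_P216179, the kinase probe shown above, had a mean of -0.40 ± 1.31 (SD, n = 8; limma adjusted p = 0.528). Tumors 6 and 7 lay at -2.09 and -2.60, and the other tumors between -0.53 and 0.94. A_52_P49250, printed 10 times and further downstream, averaged 0.13 ± 0.68 (SD, n = 8; limma adjusted p = 0.713), with tumor 6 at -1.17 and tumor 7 at 0.36. On the first arrays it was above the pool in 7 of 8 tumors, and on the swapped arrays it was below the pool on 3 of 4. Without tumors 6 and 7 the means were 0.25 and 0.31, with limma adjusted p of 0.399 and 0.23.

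Of the 14 genes listed as neighbours of Erbb2 on its chromosome, each read at its brightest probe, 1 was lower and none was higher, beside the 15.3% of all probes called. That gene was Grb7, an adaptor that binds ErbB receptors (-0.83 ± 0.44, SD, n = 8; limma adjusted p = 0.00878). With median centring it stood at -0.26 and was not called (limma adjusted p = 0.383). Med1 had the lowest mean of the list, -1.12 ± 1.16 (SD, n = 8), and was not called (limma adjusted p = 0.0647). Among the less bright probes of these neighbours, Cdk12 A_52_P309737 was lower (-0.49, limma adjusted p = 0.0205). The brightest Cdk12 probe was at 0.40 and was not called (limma adjusted p = 0.558).

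Erbb3, the neuregulin receptor with the weak kinase, was lower on its 3 upstream probes and not on its 2 downstream probes. The overlapping kinase probes gave nearly the same values. A_51_P342050 was below the pool in all 7 tumors with a value, from -2.01 in tumor 7 to -0.25 in tumor 1, with a median of -0.93. Its mean was -1.04 ± 0.58 (SD, n = 7; limma adjusted p = 0.0134), and tumor 5 is missing because its spot was an outlier. In the authors' value table, where that spot was kept, tumor 5 read 0.84. With outlier spots kept here too, the mean was -0.81 and the call was lost (limma adjusted p = 0.0704). A_51_P488243 averaged -0.91 ± 0.76 (SD, n = 8; limma adjusted p = 0.0344), with tumor 5 at 0.13 and the other tumors between -2.12 and -0.27. Its call was kept in 9 of 18 alternatives. Over the 7 tumors that both measured, the overlapping pair differed by -0.02 ± 0.15 (SD). A_52_P133607, the most upstream, was lower by a smaller amount (-0.46 ± 0.37, SD, n = 8; limma adjusted p = 0.0473), and kept its call in 6 of 18 alternatives.

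Downstream of these, A_51_P414813 split the tumors. With arrays averaged by label, tumors 6 and 7 lay at -1.66 and -1.97, and tumors 2 and 3 at 0.04 and 0.13. Tumors 1, 4, 5 and 8 lay at 1.37, 1.12, 1.64 and 1.93. On the first arrays tumors 2 and 3 read 0.90 and -0.13. The swapped arrays labelled 1 to 4 read 0.98, -0.82, 0.39 and 1.29, so that the place of tumors 2 and 3 depends on the labels. The mean of this probe, 0.32 ± 1.48 (SD, n = 8), was not called (limma adjusted p = 0.655). Without tumors 6 and 7 the probe was called higher at 1.04 (limma adjusted p = 0.0252). The other Erbb3 probes had no such high tumors. With arrays averaged by label, the 3 lower ones fell below the pool in tumors 1, 4 and 8 as well. A_52_P432949, which rests on the file's gene name and a predicted record (XM_972868), averaged 0.13 ± 0.38 (SD, n = 8; limma adjusted p = 0.558). Without tumors 6 and 7, A_51_P342050 stayed lower (-0.78, limma adjusted p = 0.0142), and A_51_P488243 and A_52_P133607 were at -0.59 and -0.29 with limma adjusted p of 0.052 and 0.0632.

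Erbb3 is also a receptor of Schwann cells, where neuregulin is its ligand, and markers of that cell type moved the same way. Of 5 Schwann cell markers, all tested, 3 were lower and none was higher, with a list median of -0.39, where 10.1% of all probes were lower. S100b was at -1.30 ± 0.85 and Mbp at -0.39 ± 0.18 (SD, n = 8 each; limma adjusted p = 0.0137 and 0.023), and Sox10, which was not called, was at 0.02. With median centring S100b was not called (-0.82), and Mbp turned to 0.03. With dye fitted over best-matching pairs neither passed (limma adjusted p = 0.0608 and 0.0699). Every marker of the list was well above background on at least 1 tumor array. The summed intensity of the list ranged from 55181 to 143194 in tumor RNA and from 90151 to 116655 in pool RNA. The part of these cells in the Erbb3 result was not tested.

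Erbb4, the other neuregulin receptor, had the lowest family mean at its upstream end and was not called at its downstream end. A_52_P608535 was below the pool in 8 of 8 tumors, from -2.12 in tumor 8 to -0.23 in tumor 5, with a median of -1.28. Its mean was -1.20 ± 0.55 (SD, n = 8), 2.30-fold lower (limma adjusted p = 0.00446; exact sign-flip p = 0.00781). The pool's signal was well above background on 12 of 12 arrays and the tumor's on 4 of 12, so that the size depends on how background is treated. With Feature Extraction's processed signals it was -2.88, and in the authors' value table -1.69. With arrays averaged by label, the kinase probe A_51_P396034 was lower in 8 of 8 tumors too, between -0.89 and -0.17 with a median of -0.49. Its mean was -0.48 ± 0.22 (SD, n = 8; limma adjusted p = 0.0141), with tumor RNA well above background on 3 of 12 arrays and pool RNA on 11. On the swapped arrays labelled 1 to 4 this probe read 0.005, -0.72, 0.07 and -0.45, so that those labelled 1 and 3 did not lie below the pool. Both calls held without tumors 6 and 7 (limma adjusted p = 0.00902 and 0.018), and neither passed with dye fitted and best-matching pairs (limma adjusted p = 0.0641 and 0.154). A signal of either RNA let a probe be tested, and for both probes it was mostly the pool's. Where both RNAs had to be well above background on every array, neither probe was tested and Erbb4 had no call.

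At the downstream end, A_51_P283698 was well above background on all arrays, and its sign followed the dye. On the 7 first arrays with a value it lay between 0.44 and 1.57, and on the 4 swapped arrays between -1.23 and -0.73. Among the first arrays, the mean was 1.11 on the slide of tumors 1 to 4 and 0.97 on that of tumors 5 to 8. On the first arrays alone it was called higher (1.03, limma adjusted p = 0.00567), over the 8 tumors it was not (0.39 ± 0.80, SD, limma adjusted p = 0.332), and with dye fitted and best-matching pairs it was -0.03 (limma adjusted p = 0.96). All of the swapped arrays lie on 1 slide, so that its effect and that of the dye cannot be told apart. No other receptor probe had first and swapped arrays that did not overlap, and how common such a split is among all probes was not counted.

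**Figure D2:**
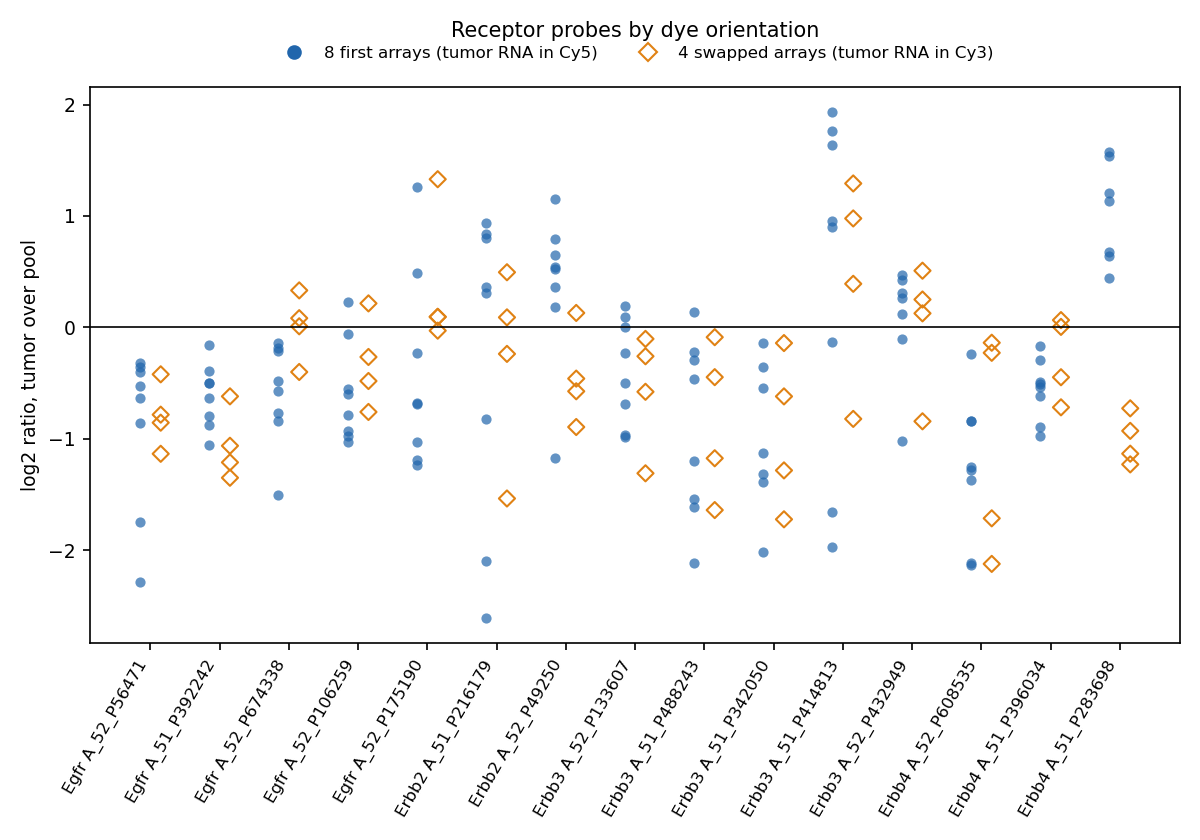
Each column is a tested receptor probe, the vertical axis is the log2 ratio of tumor over pool, blue points are the 8 first arrays (tumor RNA in Cy5) and orange diamonds the 4 swapped arrays (tumor RNA in Cy3). Erbb4 A_51_P283698, at the right, lies above 0 on the first arrays and below 0 on the swapped arrays, while Egfr A_52_P56471 and A_51_P392242 lie below 0 on all of them.

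Erbb4 acts in milk-producing cells, whose markers were read beside it. Of 7 alveolar secretory markers, 4 were higher and none was lower, with a list median of 1.32, where 5.19% of all probes were higher. They were the milk protein genes Csn1s1 (4.25), Csn2 (4.59), Wap (2.84) and Lalba (1.32), of which Lalba lost its call on the first arrays alone and with dye fitted over best-matching pairs (limma adjusted p = 0.11 and 0.0973). The others were Csn3 at 1.06 and the alveolar transcription factors Elf5 at -0.09 and Stat5a at -0.04, with limma adjusted p of 0.0882, 0.736 and 0.878. All 7 were well above background on at least 1 tumor array, and their summed intensity ranged from 321109 to 780885 in tumor RNA and from 98135 to 233521 in pool RNA. Their part in the Erbb4 values was not tested.

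Probes of 1 gene were compared in pairs within each tumor. Of 35 pairs of tested probes within a gene, in 6 genes, the upstream probe had the lower mean in 27. Many of these pairs share a probe, and over 6016 genes, at 1 pair a gene, the upstream probe was the lower in 60.8%. None passed the exact two-sided sign-flip test after Benjamini-Hochberg adjustment over the pairs (smallest adjusted p = 0.0684, reached by 8 pairs), while 16 had an unadjusted p under 0.05, in 12 of which the upstream probe was lower. With the authors' deposited values, 10 of 31 pairs passed, 8 of them with the upstream probe lower. Erbb4's ends differed by -1.59 ± 0.90 (SD, n = 8), with the upstream probe lower in 8 of 8 tumors (exact sign-flip p = 0.00781). Its downstream probe is the one whose sign followed the dye.

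The tumors with the general difference between gene ends were also those in which the receptors' ends differed most, with Erbb4 as an exception. For Egfr the upstream minus the downstream probe was -3.54 in tumor 6 and -1.52 in tumor 7, for Erbb2 it was -0.92 and -2.96, and for Erbb3 -1.23 and -1.41. In the other 6 tumors these differences lay between -1.06 and 0.79 for Egfr, between -0.39 and 0.28 for Erbb2 and between -0.69 and -0.03 for Erbb3. For Erbb4 the difference was largest in tumor 8 (-3.32). Tgfa ran the other way, at 5.22 in tumor 6 and 3.64 in tumor 7, with the other tumors between -0.15 and 0.52. The part of this difference between gene ends in the family's calls was not tested.

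**Figure D3:**
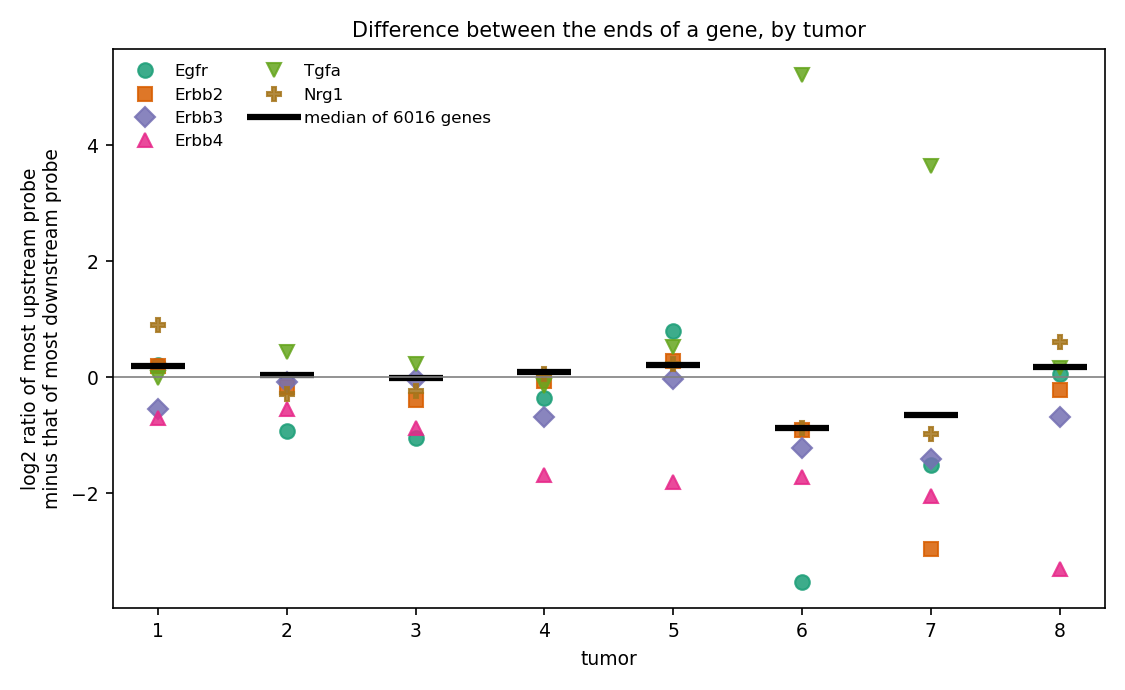
The horizontal axis is the tumor, and the vertical axis is the log2 ratio of a gene's most upstream tested probe minus that of its most downstream one, for 6 family genes (coloured points) and as the median of 6016 genes (black bars). The black bars drop to -0.88 and -0.65 in tumors 6 and 7, where Egfr, Erbb2 and Erbb3 lie below 0 and Tgfa far above.

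Nrg1, the ligand of ErbB3 and ErbB4, was the only ligand gene with a called probe. A_52_P328064, which rests on a predicted record (XM_900817), was below the pool in all 7 tumors with a value, between -2.44 in tumor 5 and -0.30 in tumor 8, with a median of -0.79. Its mean was -1.02 ± 0.73 (SD, n = 7; limma adjusted p = 0.0278). It kept its call in 14 of 19 alternatives. The other 4 Nrg1 probes had means between -0.26 and -0.09 with limma adjusted p between 0.578 and 0.872, and they spread widely over the tumors.

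Of these, 3 had the same signs in most tumors. On the first arrays, the EGF-like domain probe A_52_P369769 read 0.95, 0.26 and 1.10 in tumors 1, 4 and 8, and -0.62, -0.98, -1.04 and -1.30 in tumors 2, 3, 5 and 6. A_52_P369761 and A_52_P52635 were likewise above the pool in tumors 1, 4 and 8 (0.24 to 1.27) and below it in tumors 2, 3, 5 and 6 (-1.63 to -0.35). Tumor 7 lay between, at -0.20, 0.32 and 0.08. The swapped arrays labelled 1 and 4 were above the pool on all 3 probes and that labelled 2 was below (-1.97 to -1.28). The most downstream probe, A_52_P158772, differed: it read -0.45 and -0.16 in tumors 1 and 4, and was highest in tumor 7 (0.78).

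Areg, a target of estrogen signalling in the mammary gland, was read by 1 probe, A_52_P482897, with a mean of 0.03 ± 0.93 (SD, n = 8; limma adjusted p = 0.958) that covers tumors of both signs. On the first arrays it was highest in tumor 3 at 2.68, followed by tumor 7 at 0.87, and the other tumors with a value lay between -1.18 and -0.14. The swapped array labelled 2, the one most like tumor 3, read 2.30, and the other swapped arrays lay between -0.80 and -0.01. Averaging arrays by their labels gave tumors 2 and 3 values of 1.01 and 1.24. Among 5 tested markers of hormone-sensing epithelium, 1 was lower, the estrogen receptor gene Esr1 (-0.99 ± 0.84, SD, n = 8; limma adjusted p = 0.0361), and none was higher. That call was lost with median centring and with dye fitted over best-matching pairs (limma adjusted p = 0.0634 and 0.139).

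Tgfa, a ligand of Egfr, had 2 probes of opposite mean. A_51_P415126, printed 10 times, was at -3.10 in both tumor 6 and tumor 7, with the other tumors between -0.95 and 0.67, and averaged -0.77 ± 1.53 (SD, n = 8; limma adjusted p = 0.295). Without those 2 tumors its mean was 0.01. A_52_P555423, which lies upstream, read 2.12 in tumor 6, with every other tumor between -0.51 and 0.66 once arrays were averaged by label (mean 0.49 ± 0.78, SD, n = 8; limma adjusted p = 0.216). On the first array of tumor 3 the probes read -2.11 and -1.07, and on the swapped array labelled 2 they read -2.12 and -1.51. Those 2 arrays were the lowest of the 12 on the upstream probe.

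The remaining ligands were close to the pool or near background. Hbegf, the heparin-binding ligand, averaged -0.03 ± 0.31 (SD, n = 8; limma adjusted p = 0.875), and betacellulin (Btc) averaged -0.01 ± 0.23 on A_52_P672689 (SD, n = 8; limma adjusted p = 0.935). With arrays averaged by label, their highest tumors were at 0.49 and 0.27 and their lowest at -0.33 and -0.36. Single arrays spread further: the first arrays ran from -0.59 to 0.77 for Hbegf and from -0.73 to 0.27 for Btc, and the swapped arrays reached -0.81 for Hbegf and 0.63 for Btc. The other Btc probe was well above background on 1 of 12 arrays. Epiregulin (Ereg) was well above background on 0 and 2 of 12 arrays on its 2 probes, of which A_51_P157223 lies on the strand opposite to the other, so that no level can be given for it.

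The 9 called probes were compared under up to 19 other settings. The extracellular Egfr probe A_52_P56471, A_51_P392242 and the Erbb3 kinase probe A_51_P342050 each kept their call in 18 of 19. The overlapping Erbb3 probe A_51_P488243, with a value in every tumor, kept it in 9 of 18. The Erbb4 probes A_52_P608535 and A_51_P396034 kept theirs in 17 of 18, and were not tested where both RNAs had to be well above background on every array. Under median centring all 9 stayed negative and 5 were called. That setting put the median of all probes at 0.10, against -0.05 with loess, and the share of calls that were higher at 63.4%, against 34.0% with loess.

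**Figure D4:**
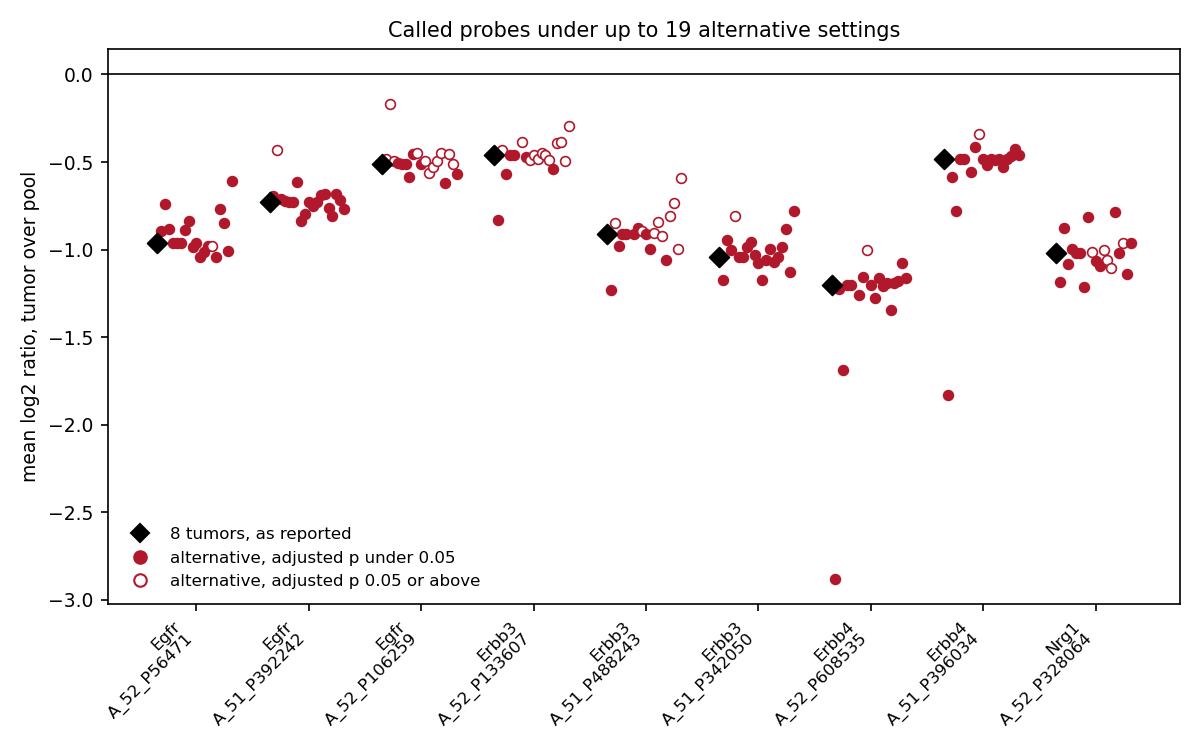
Columns are the 9 probes called lower, the vertical axis is the mean log2 ratio of tumor over pool, the black diamond is the value over 8 tumors and circles are alternative settings in a fixed order, filled where the limma adjusted p was under 0.05. All plotted values are below 0, the lowest being -2.88 for Erbb4 A_52_P608535 with processed signals, and open circles are most frequent for Egfr A_52_P106259 and Erbb3 A_52_P133607.

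Beyond the family, 63 genes that act with ErbB receptors or lie beside Erbb2 were read from lists of ligands, shedding proteases, regulators, adaptors and neighbours. Of their 107 tested probes, 15 (14.0%) were called, 12 lower and 3 higher, close to the 15.3% of all probes. The other ligands held 1 called gene of 3 tested: Egf, the founding ligand, at -1.94 ± 1.25 (SD, n = 8; limma adjusted p = 0.0117), which was the lowest mean of all these lists and stayed called with median centring (-1.57). Epgn, the highest of that list, was at 0.34. The 10 tested shedding genes had means between -0.58 (Adam17, the main shedding protease of several ErbB ligands) and 0.78 (Adam19), and no limma adjusted p under the 0.0722 of Adam19.

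Among 18 receptor regulators, each read at its brightest probe, 4 were lower and 1 higher, where 10.1% of all probes were lower and 5.19% higher. The lower ones were Lrig1, a membrane protein that promotes degradation of ErbB receptors, its relatives Lrig2 and Lrig3, and Errfi1 (Mig6), which binds and inhibits the receptor kinase. In that order their means were -0.71, -0.77, -0.60 and -0.59, with limma adjusted p of 0.00586, 0.00178, 0.00495 and 0.0445. With median centring none of these was called, and Errfi1 turned to 0.05. With dye fitted over best-matching pairs Lrig1 and Errfi1 lost their calls (limma adjusted p = 0.0594 and 0.15). Among the less bright probes, Lrig2 A_52_P228491 was at -0.09 and was not called (limma adjusted p = 0.608). Erbin A_52_P1131754 and Usp8 A_52_P547740 were lower there (-1.40 and -0.84, limma adjusted p = 0.00549 and 0.0345), and Muc4 A_52_P458219 was higher (0.97, limma adjusted p = 0.0325). Muc4, a membrane mucin that binds ErbB2, was higher (1.41 ± 1.02, SD, n = 8; limma adjusted p = 0.0192), but was not called on the first arrays alone (1.49, limma adjusted p = 0.0889) or with dye fitted over best-matching pairs (1.26, limma adjusted p = 0.216). Cbl, the ubiquitin ligase, was at -0.64 ± 1.46 (SD, n = 7) and was not called (limma adjusted p = 0.387).

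Of 15 tested proximal adaptors, each read at its brightest probe, 3 were lower and none was higher, where 10.1% of all probes were lower and 5.19% higher. They were Grb2 (-0.52), which joins ShcA to the Ras activator Sos, the phosphatase Ptpn11 (-0.55) and Grb7 (-0.83), with limma adjusted p of 0.028, 0.0129 and 0.00878. With median centring none was called, and Ptpn11 stood at 0.00. Grb2 was not called on the first arrays alone (limma adjusted p = 0.0944), nor Ptpn11 with dye fitted over best-matching pairs (limma adjusted p = 0.229). Among the less bright probes, Crk A_52_P515840 was higher (0.49, limma adjusted p = 0.0271). Grb2 A_51_P198411 was not called (-0.42, limma adjusted p = 0.101). Ptpn11 A_52_P211393 was not called and A_52_P641185 was lower (-0.24 and -1.01, limma adjusted p = 0.312 and 0.00465). The highest of the list, Src, was at 0.50 (limma adjusted p = 0.259).

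As a description, the probes most like the called receptor probes with a value in all 8 tumors, which leaves out Erbb3 A_51_P342050, were sought among about 24270 named probes of other genes without a missing value. Both called Erbb4 probes were most like Lcorl (r = 0.994 and 0.972) and then Pigyl (0.978 and 0.95). Egfr A_52_P56471 was most like Ppm1b (0.996), A_51_P392242 most like Myl6b (0.986) and A_52_P106259 most like Ubn2 (0.989). Erbb3 A_51_P488243 was most like Miga2 (0.991) and A_52_P133607 most like 4930430F08Rik (0.994). Without tumors 6 and 7 these values were 0.994 and 0.975 for Lcorl, 0.931 for Ppm1b, 0.993 for Myl6b, 0.976 for Ubn2, 0.974 for Miga2 and 0.983 for 4930430F08Rik. All points share 1 pool, and only 8 tumors enter each r.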

How the data were processed

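RNA of 8 tumors and 1 pool, amplified once per the labels' protocols, was hybridised on 12 two-colour arrays. The amount given is 500 ng of RNA per array channel. The deposited files hold, per the file headers, foreground and background intensities from Agilent Feature Extraction 9.5.3.1, processed intensities, a log10 ratio of red over green, and other flags of 0 or 1 (well above background, outlier); probe coordinates are on mm7. The authors also deposited log2 values per spot, used as an alternative; the sources used here do not give their normalization. Background was corrected by normexp (offset 50), each array was normalized by loess without its control spots, outlier spots (0.47% to 13.7% of an array) were left out, ratios were turned to tumor over pool, and spots, then arrays of a tumor, were averaged (limma 3.58.1, R 4.3.3, and version 1.17.8 of data.table). Probes in which at least 4 tumors had a ratio and a signal of either RNA well above background were tested against 0 with limma (lmFit, eBayes; Benjamini-Hochberg over 30706 probes, adjusted p under 0.05). The pool is 1 control sample, so the spread between control tumors is not in the test. The labels do not say that tumors came from separate animals: p-values cover only how these samples vary, which may be technical, and the number of arrays limits the precision. On simulated data of 30706 probes, 200 of them changed, 59% of changes of 1 and 92% of changes of 2 (log2) were called. Every family probe is named; list genes, read at their brightest probe, are named where called, or highest or lowest in their list; some marker genes are not reported here. Members and lists were chosen with earlier results of these data known.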

Additional observations from a re-analysis of the deposited data

Results flagged for a closer look

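Of 25 tested family probes, 1 had a tumor far from the rest. On Tgfa A_52_P555423 tumor 6 read 2.12, with arrays averaged by label, and the other 7 tumors lay between -0.51 and 0.66, so that the gap to the nearest tumor was 0.557 of the whole range, above Dixon's critical value for 8 values. On the first arrays alone tumor 6 read 2.12 too, but the others ran from -1.07 to 1.08, and the gap was below that critical value. Chance flags about 5% of groups, and 25 were examined.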

How the results depend on the processing

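The 9 family probes called lower kept their sign under each of the 18 or 19 alternatives that tested them, and none of 469 comparisons of a single probe with its reported value reversed a call. The family's count of called probes was 5 with median centring, 5 where both RNAs had to be well above background on every array, 3 with dye fitted over best-matching pairs, and between 4 and 8 when 1 tumor was left out. The pathway lists' count, 15 as reported, was 9 with median centring, 24 with a dye term and the labelled tumor as block, 6 with dye fitted over best-matching pairs, 38 without tumors 6 and 7 (chosen after seeing the data), and between 10 and 24 when 1 tumor was left out, the highest being without tumor 6. The number called among all tested probes, 4696 as reported, moved too. It was 4393 with median centring, 1885 with dye fitted over best-matching pairs, and 3306 of 22561 where both RNAs had to be well above background. With a dye term and the labelled tumor as block it was 6219, and without tumors 6 and 7 it was 8371. When 1 tumor was left out it lay between 2425 and 6051. Pairs of probes of 1 gene that differed numbered 10 with the authors' deposited values, against 0 as reported. The cause of these changes was not tested, except that the stricter filter left 20 family probes to test. No paired analysis was possible because the pool is 1 sample. Signal over background left Ereg untested, and it limits Erbb4, whose 2 called probes had tumor RNA well above it on 4 and 3 of 12 arrays.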
